A study of Danio rerio with 170 samples.

Results

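Anthracene and phenanthrene are structural isomers, polycyclic aromatic hydrocarbons built of 3 fused benzene rings that lie in a straight line in anthracene and at an angle in phenanthrene. Their transcriptomes were measured by RNA sequencing of whole zebrafish embryos (Tropical 5D wildtype) collected at 48 hours post fertilization (hpf). The members are the 4 libraries labelled anthracene and the 4 labelled phenanthrene (Phenan), each at 50 µM, so 8 of the 70 libraries of the 16-compound set they belong to and 8 of the 170 libraries of the series. The series was a compendium that compared the embryonic transcriptome after exposure to polycyclic aromatic hydrocarbons, flame retardants and TCDD (2,3,7,8-tetrachlorodibenzo-p-dioxin). Each isomer was set against the vehicle control that the study paired with it. Anthracene was compared with DMSO_B, which had 4 libraries at 1% DMSO, and phenanthrene was compared with DMSO_A, which had 3 libraries at 1% DMSO labelled as replicates 2, 3 and 4. No mutation or transgene is named for the embryos of these 15 libraries, and concentrations were chosen by the study from an earlier screen for malformation and behaviour. Where the wanted effect was not reached in that screen, the study took the highest concentration screened, which was 50 µM for these hydrocarbons. The shared 50 µM therefore need not be a dose of equal effect.

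Polycyclic aromatic hydrocarbons can act as ligands of the aryl hydrocarbon receptor (AHR), a transcription factor of the cytosol that moves to the nucleus on binding, pairs with ARNT and switches on genes that carry its response element. In zebrafish the receptor for TCDD toxicity is Ahr2. The most used marker of that response is cyp1a, which encodes a cytochrome P450 that oxidizes such compounds, and other targets are cyp1c1, cyp1c2 and the AHR repressor genes, whose products dampen the pathway. Not every such hydrocarbon is a strong AHR ligand, and those of 3 rings are also studied for effects on the fish heart that do not need the receptor.

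The 15 libraries held between 15080232 and 24562395 reads assigned to genes, with a median of 19002087. Levels are given below as normalized reads, which are read numbers divided by the library's size factor, and fold changes are on the scale log2(normalized reads + 1). They came from 1 limma fit over the 70 libraries, and a gene was called when its p, adjusted over 21854 genes, was under 0.05. Anthracene replicate 2 stood apart before any comparison was made. Its median correlation with the other 14 libraries was 0.961, against 0.984 to 0.988 in those 14. In it 349 of 14235 genes lay more than 1 log2 unit from their median over the other libraries, against 16 to 150. The 150 were in anthracene replicate 1, and the next highest number was 49, in anthracene replicate 4. The main counts for anthracene, and the values that replicate 2 moved most, are also given without replicate 2. The labels do not say whether replicates were separate clutches or vials, so each p measures a spread between libraries only. For limma that spread, and each SE and interval, was pooled over the 18 groups of the fit.

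With all libraries, neither isomer moved many genes beyond the spread between replicates. Anthracene against DMSO_B gave 0 called genes of 21854 (0.0%) by limma, with a smallest adjusted p of 0.188. An unadjusted p under 0.05 was reached by 2050 genes (9.38%), 1059 of them higher (4.85%) and 991 lower (4.53%), and limma with voom weights on the read numbers also called 0. Phenanthrene against DMSO_A gave 3 called genes (0.0137%), of which sik1 and nr1d2a fell and si:dkey-88n24.11 rose, and 1007 genes (4.61%) had an unadjusted p under 0.05. The shifts were small across the transcriptome. The standard deviation of the log2 fold change over all genes was 0.318 for anthracene and 0.297 for phenanthrene, and 90% and 91.5% of genes lay within 0.5 log2 units of no change.

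The count for anthracene at the unadjusted level depended on single libraries. Without replicate 2, 646 genes (2.96%) had a p under 0.05, and without replicate 1 there were 3282 (15.0%) and 3 called genes, wu:fl23c11, nacc1b and cyp1a, the first 2 named here after their values were seen. Leaving out any of the 4 DMSO_B libraries or either of the other 2 anthracene libraries gave 7.1% to 10.7%. For phenanthrene the share stayed between 3.67% and 5.28% whichever of the 7 libraries was left out. All these shares use the spread pooled over the 18 groups. In limma fits of only each isomer and its control, 1820 genes had a p under 0.05 for phenanthrene and 1416 for anthracene. The order of the isomers was then reversed. The median replicate SD of a gene on the log2 scale was 0.211 in anthracene, 0.147 in anthracene without replicate 2, 0.146 in phenanthrene, 0.152 in DMSO_B and 0.146 in DMSO_A. Ranked from the fewest by genes with an unadjusted p under 0.05, phenanthrene was the 3rd and anthracene the 7th of the 16 compounds of the set. That ranking mixes doses from 1.9 to 50 µM and both control groups. It also uses all libraries, and the 646 anthracene genes without replicate 2 were fewer than the 1007 of phenanthrene.

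**Figure D1:**
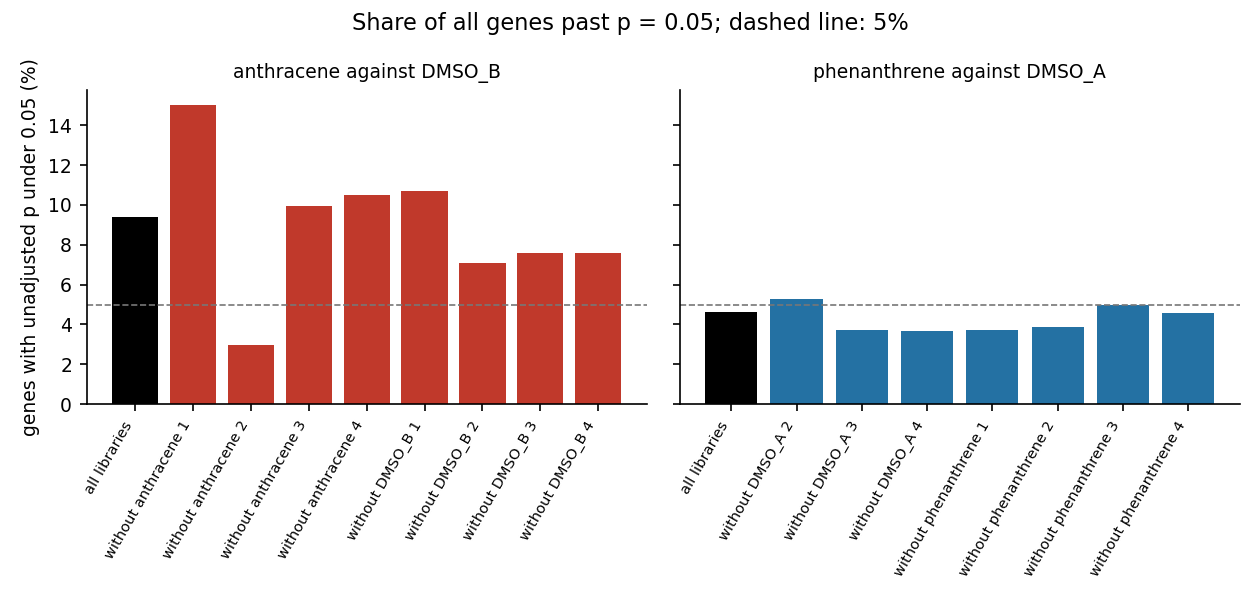
Share of 21854 genes with an unadjusted limma p under 0.05 (vertical axis, percent) for each isomer against its own control, with all libraries (black) and with the named library left out (coloured bars). The dashed line marks 5%. Anthracene runs from 2.96% without replicate 2 to 15.0% without replicate 1, and phenanthrene from 3.67% to 5.28%.

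The marker cyp1a had the smallest p of any gene that was higher with anthracene and met the naming rule. It was at 202.2, 621.6, 3281.6 and 405.3 normalized reads in anthracene replicates 1 to 4, and at 225.1, 199.8, 142.5 and 198.1 in DMSO_B replicates 1 to 4. Replicate 1 lay inside the control range, the other 3 lay above every DMSO_B library, and replicate 3 stood far above the rest. The mean was 1127.7 ± 1446.1 (SD, n = 4) against 191.4 ± 34.8 (SD, n = 4), and the highest anthracene library held 16.2 times the lowest.

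In limma cyp1a was 3.38-fold higher with anthracene (log2 fold change 1.76, SE 0.38, 95% interval 1.98-fold to 5.76-fold), with an adjusted p of 0.188, so it did not pass over all genes. That SE is pooled over all groups. A limma fit of only anthracene and DMSO_B gave an SE of 0.59 and an adjusted p of 0.72. The two-sided exact permutation test over the 8 libraries gave p = 0.0571, where the smallest p that 4 against 4 allows is 0.0286. Single libraries set the size of this value. Without replicate 3 the log2 fold change was 0.97 (adjusted p = 0.32 by limma), and without replicate 2 it was 1.77, and neither passed. Without replicate 1, the anthracene library lowest in cyp1a, it was 2.31 and passed, with an adjusted p of 0.00138 by limma. It passed with no other single library left out. Against all 7 control libraries together cyp1a also passed, at 1.84 and an adjusted p of 0.0211.

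Phenanthrene gave a similar average with a narrower spread. Its 4 libraries held cyp1a at 682.9, 1186.3, 651.1 and 238.1, and DMSO_A replicates 2, 3 and 4 held 132.4, 259.9 and 126.7. Replicates 1 to 3 lay above every DMSO_A library and replicate 4 lay between the middle and the highest of them. The mean was 689.6 ± 388.2 (SD, n = 4) against 173.0 ± 75.3 (SD, n = 3), and the highest library held 4.98 times the lowest.

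By limma cyp1a was 3.63-fold higher with phenanthrene (log2 fold change 1.86, SE 0.42, 95% interval 2.04-fold to 6.46-fold), with an adjusted p of 0.189. A limma fit of only phenanthrene and DMSO_A gave an adjusted p of 0.238. The exact permutation p was 0.114, where 4 against 3 cannot go below 0.0571. Without replicate 4, the phenanthrene library lowest in cyp1a, the log2 fold change was 2.30 with an adjusted p of 0.00463 by limma. Against all 7 controls it was 1.74 with an adjusted p of 0.00951, and both were called. It was not called with any other single library left out. Those adjusted p ran from 0.103 without DMSO_A replicate 3 to 0.999 without phenanthrene replicate 2. Among the libraries that shared a sequencing lane with a control of their own group, anthracene replicates 2 and 3 were 1.46 and 3.86 log2 units above DMSO_B replicate 1 in lane 4. In lane 3 phenanthrene replicate 4 was 0.842 above DMSO_A replicate 2, and in lane 5 phenanthrene replicate 1 was 1.39 above DMSO_A replicate 3.

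**Figure D2:**
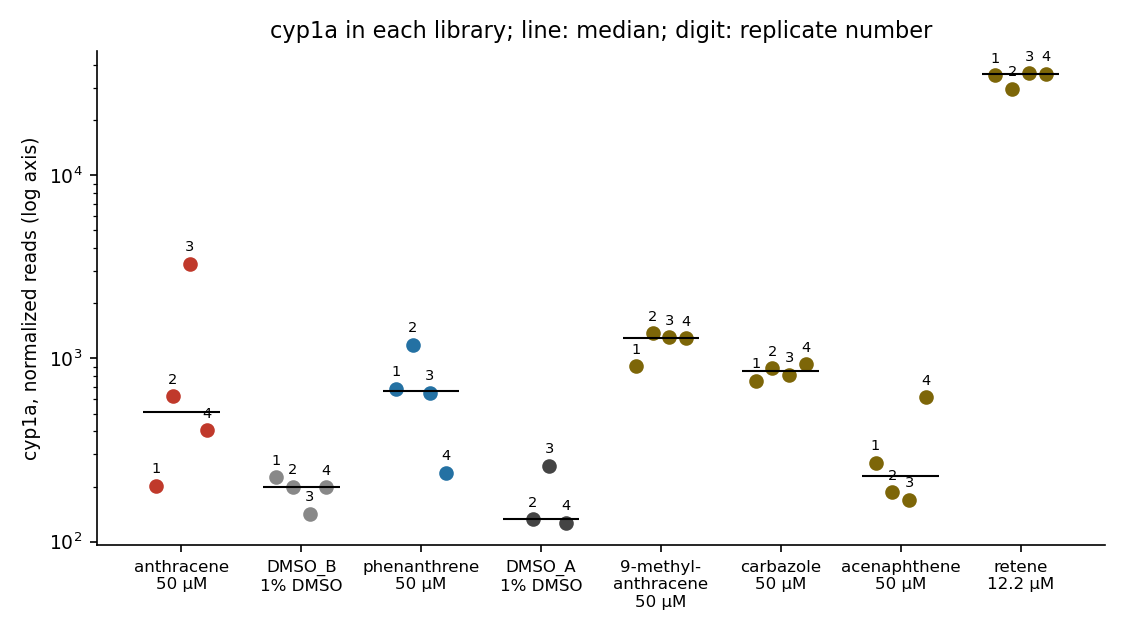
Normalized reads of cyp1a in each library (vertical axis, log scale) by group, with the replicate number above each point and the group median as a line. Anthracene runs from 202.2 to 3281.6 and phenanthrene from 238.1 to 1186.3, the control libraries lie between 126.7 and 259.9, and retene at 12.2 µM lies between 29590.9 and 36011.5.

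A total of 4 pairs of compounds at 50 µM and the same collection time were compared for cyp1a, and p-values were adjusted over these 4. The isomers themselves did not differ detectably. The response to phenanthrene minus the response to anthracene was 0.10 log2 units (SE 0.57), with a 95% interval of the ratio from 0.49-fold to 2.36-fold and an adjusted p of 0.856 by limma, so a difference of about 2-fold either way was not excluded by the interval. The sign of that difference turned when the libraries' lane entered the fit (-0.13). Both control groups were at like levels, DMSO_A minus DMSO_B being -0.21 log2 units (SE 0.42, exact permutation p = 0.629).

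The 9-methylanthracene libraries, whose compound adds a methyl group to anthracene, held cyp1a at 905.4, 1369.0, 1304.3 and 1292.7. They were much closer together than those of anthracene, with a coefficient of variation of 17.3% against 128.0%. Their mean log2 level was 0.91 above that of anthracene (1.88-fold, 95% interval 1.1-fold to 3.20-fold), with an adjusted p of 0.0428 over the 4 pairs by limma, but the exact permutation p was 0.4, and anthracene replicate 3 lay above all of them. The limma call was lost in a fit of only the groups compared (adjusted p = 0.294) and without replicate 1, 2 or 4 of anthracene or replicate 2, 3 or 4 of 9-methylanthracene. Without anthracene replicate 3 it was 1.69, with an adjusted p of 7.94e-06.

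Carbazole, with a nitrogen atom in the central ring, held cyp1a at 754.0, 885.2, 815.9 and 928.3, with a coefficient of variation of 9.08%. It differed from anthracene by 0.40 log2 units (95% interval of the ratio 0.773-fold to 2.25-fold, adjusted p = 0.408 over the 4 pairs by limma). Without anthracene replicate 3 this difference was 1.18 with an adjusted p of 0.000674, and without replicate 1 it was -0.15. Both comparisons with anthracene therefore turned on single anthracene libraries.

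Acenaphthene, in which a bridge of 2 carbons closes the third ring in place of an aromatic ring, shared the control group DMSO_A with phenanthrene. Its libraries held cyp1a at 269.2, 186.0, 169.7 and 615.9, and 2 of them lay within the phenanthrene range. The level was 0.453-fold that of phenanthrene (log2 fold change -1.14, 95% interval 0.266-fold to 0.772-fold), with an adjusted p of 0.017 over the 4 pairs by limma and an exact permutation p of 0.143. The call was lost in a fit of only the groups compared (0.149), without phenanthrene replicate 2 (0.0975) and without acenaphthene replicate 3 (0.0578). Retene, an alkylated phenanthrene, was tested at 12.2 µM and not at 50 µM. It held cyp1a at 35182.4, 29590.9, 36011.5 and 35846.7, and these levels stand beside those of phenanthrene without a comparison because the doses differ. By mean level of cyp1a anthracene was the 9th and phenanthrene the 11th highest of the 18 groups, and DMSO_B and DMSO_A were the 17th and 18th. The order of the isomers turned by median, at 513.4 in anthracene and 667.0 in phenanthrene.

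The other CYP1 genes had smaller fold changes. cyp1c1, a fish CYP1 gene that AHR ligands induce, was at 165.5, 167.7, 363.8 and 150.2 in anthracene and at 128.4, 133.0, 131.0 and 143.0 in DMSO_B. All 4 anthracene libraries lay above all controls, and replicate 3 was again the highest. The log2 fold change was 0.56 (SE 0.17), with an adjusted p of 0.361 by limma, and it was 0.27 without replicate 3 and 0.64 without replicate 2. In phenanthrene cyp1c1 was at 186.8, 182.9, 222.6 and 144.1 against 126.7, 169.0 and 137.4 in DMSO_A, a log2 fold change of 0.34 (SE 0.18). These groups overlapped through replicate 4, the library with the lowest cyp1a.

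cyp1c2, the neighbouring duplicate, was at 62.5, 64.0, 88.7 and 68.6 in anthracene and at 44.0, 43.5, 49.6 and 70.5 in DMSO_B (log2 fold change 0.46, SE 0.16). It was at 65.4, 73.6, 80.8 and 50.0 in phenanthrene and at 54.1, 40.7 and 55.1 in DMSO_A (log2 fold change 0.42, SE 0.17). Both pairs of groups overlapped through 1 library, and neither value passed the adjusted test (0.424 and 0.999 by limma). cyp1d1, the fourth member measured, was level in both isomers, with log2 fold changes of 0.02 and -0.07. The gene cyp1b1 was not analysed here.

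Of the 9 genes for receptors, their partners and repressors, the receptor ahr2 itself was level. It ranged from 1536.6 to 1889.4 in anthracene against 1606.9 to 1818.0 in DMSO_B, and from 1749.8 to 2008.4 in phenanthrene against 1772.9 to 2022.0 in DMSO_A. The log2 fold changes were 0.04 (SE 0.10) and -0.05 (SE 0.10). The repressor gene ahrra, itself an AHR target, was at 12.2, 16.4, 51.9 and 24.4 in anthracene against 13.6 to 14.8 in DMSO_B, a log2 fold change of 0.64 (SE 0.27, adjusted p = 0.473 by limma) that was 0.78 without replicate 2. In phenanthrene it was at 19.6, 34.6, 24.5 and 11.5 against 13.5 to 19.7, a log2 fold change of 0.27 (SE 0.30). Its highest and lowest libraries were those of cyp1a, replicates 3 and 1 in anthracene and replicates 2 and 4 in phenanthrene. The second receptor gene ahr1a had very few reads, with 3.22 to 7.93 in anthracene against 0.0 to 7.44 in DMSO_B (log2 fold change 1.19, SE 0.57), and ahr1b had log2 fold changes of -0.04 and -0.16. The partner genes arnt and arnt2, the chaperone gene aip and the repressors ahrrb and tiparp, the last an ADP-ribosylating enzyme, had log2 fold changes between -0.15 and 0.38.

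Among the 17 genes tied to Ahr2 outside the CYP1 family, sult6b1, which encodes a sulfotransferase, was higher in both isomers at the unadjusted level. It was at 385.7, 638.0, 488.6 and 413.3 in anthracene against 429.7, 351.0, 338.4 and 367.3 in DMSO_B, and at 437.4, 397.9, 464.3 and 390.2 in phenanthrene against 289.0, 328.5 and 293.8 in DMSO_A. The phenanthrene libraries lay above all DMSO_A libraries but overlapped DMSO_B, and the anthracene libraries overlapped their controls. The log2 fold changes were 0.35 (SE 0.15) and 0.47 (SE 0.16), with adjusted p of 0.467 and 0.888 by limma, and the anthracene value was 0.21 without replicate 2. The secreted-protein gene wfikkn1 was at 16.1, 19.3, 30.2 and 19.3 in anthracene against 7.0 to 18.8 in DMSO_B (log2 fold change 0.97, SE 0.31, adjusted p = 0.407 by limma), and the value was 1.00 without replicate 2. In phenanthrene it was at 18.0, 22.6, 12.6 and 7.44 against 7.83 to 15.9 (0.44, SE 0.34).

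The forkhead gene foxq1a differed in sign between the isomers. It was at 135.9, 140.5, 161.6 and 146.8 in anthracene, above all DMSO_B libraries at 124.0, 88.9, 129.1 and 109.5. It was at 66.9, 66.6, 51.7 and 60.9 in phenanthrene, where DMSO_A held 75.4, 85.3 and 64.2. The difference of the responses was -0.66 log2 units with an unadjusted p of 0.0145 and an adjusted p of 1.0 by limma, so it was not past the test. Its paralog foxq1b was at 43.2, 32.1, 25.2 and 41.9 in phenanthrene, below all DMSO_A libraries (45.3 to 56.6), with a log2 fold change of -0.51 (SE 0.21, adjusted p = 0.999 by limma).

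LOC110366352, listed in RefSeq as slincR, the long noncoding RNA beside sox9b, was at 34.1, 129.2, 61.1 and 31.2 in anthracene against 28.6 to 39.6 in DMSO_B. Its value of 0.71 (SE 0.28) became 0.29 without replicate 2. The glutathione transferase gene gstp1.2 and pkhd1l1.1, a large membrane protein gene of the fibrocystin family, lay above all DMSO_A libraries in phenanthrene, with log2 fold changes of 0.35 (SE 0.12) and 0.52 (SE 0.23). Both overlapped DMSO_B, with gstp1.2 at 3280.7 to 3623.0 in phenanthrene and 2902.2 to 3548.7 in DMSO_B, and pkhd1l1.1 at 196.7 to 247.0 and 108.4 to 241.8. The chloride channel gene clcn2c was lower with anthracene (-0.58, SE 0.25) and this value was -0.32 without replicate 2.

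Of the 30 genes in these 3 lists, 0 were called by limma in either isomer. In anthracene 9 were higher at an unadjusted p under 0.05, where 4.85% of all genes were, and 1 was lower (4.53% of all genes). Without anthracene replicate 3 the 9 became 5 (4.92% of all genes), namely cyp1a, cyp1c2, sult6b1, wfikkn1 and LOC110366352. Without replicate 2 there were 7 higher (1.38% of all genes) and 0 lower (1.57% of all genes). The counts without these replicates were added after the data were seen. In phenanthrene 5 were higher, where 1.96% of all genes were, and 1 was lower (2.64% of all genes). The median log2 fold change of the 4 CYP1 genes was 0.51 with anthracene and 0.38 with phenanthrene, of the 9 receptor genes 0.04 and -0.01, and of the 17 other genes 0.16 and 0.11, beside -0.01 over all genes in each. Anthracene lay above all its controls for 2 of the 30 (6.67%, 1.77% of all genes) and phenanthrene for 3 (10.0%, 4.23% of all genes). Below all its controls lay 0 of the 30 with anthracene (1.85% of all genes) and 1 with phenanthrene (4.75%). These are counts over genes picked for their tie to the receptor and carry no test of their own.

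**Figure D3:**
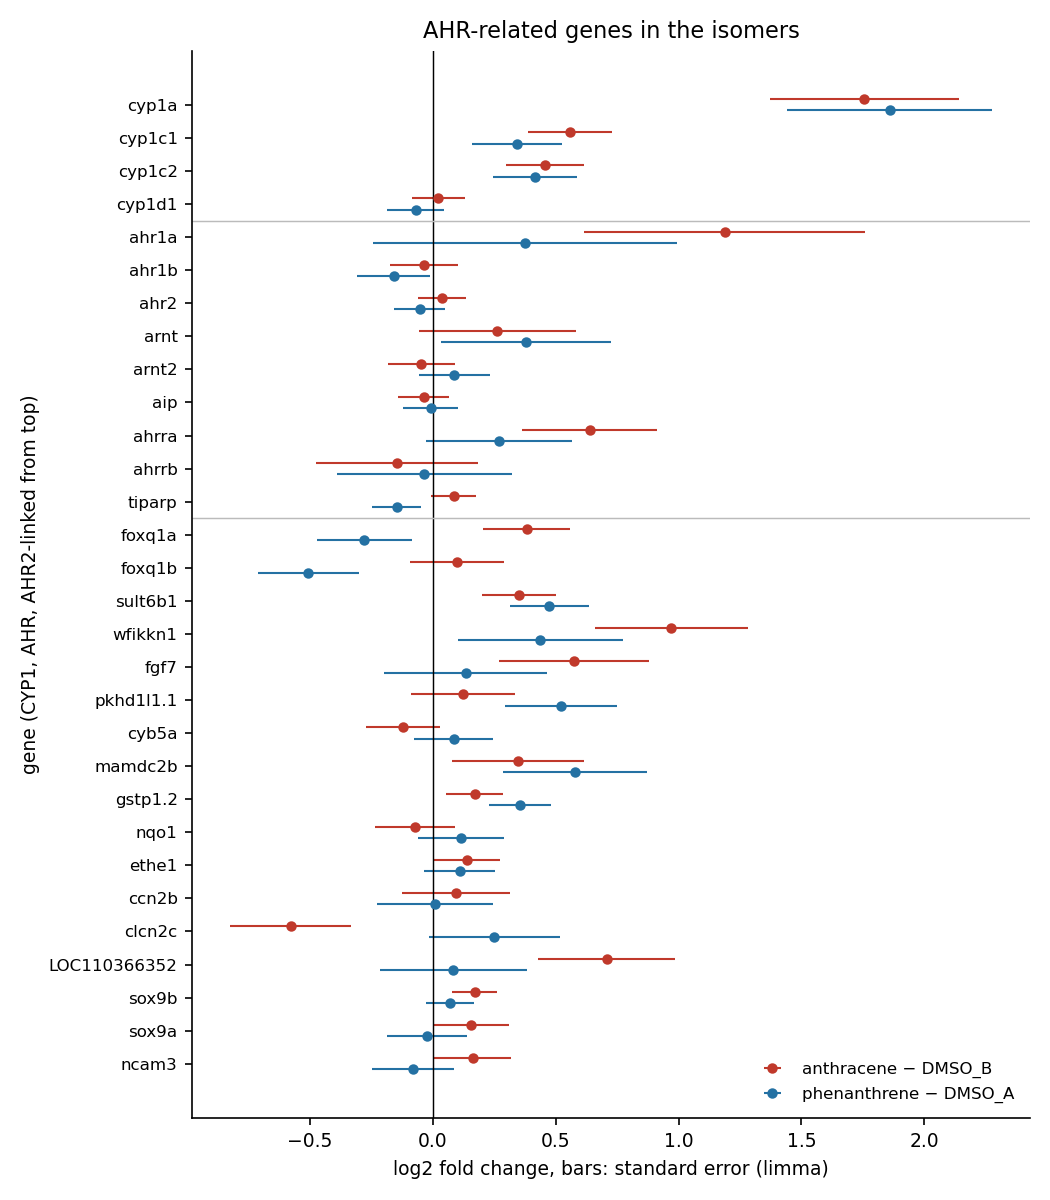
Log2 fold change (horizontal axis) of each of the 30 AHR-related genes with anthracene (red) and phenanthrene (blue) against the isomer's own control, with bars of 1 SE from limma, in the order CYP1 genes, receptors and partners, other genes. cyp1a stands apart at 1.76 and 1.86, and the forkhead genes foxq1a and foxq1b lie on opposite sides of 0 in the isomers.

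A wider list came from the TCDD libraries of the series, 4 exposed to TCDD at 1 ng/mL and 4 at 0.1% DMSO, which share no control with the isomers. The vehicle level also differed from the 1% DMSO of the isomers' controls. TCDD against its own DMSO gave 65 genes that were higher and 11 that were lower, counting genes with an adjusted p below 0.05 that differed by more than 1 log2 unit. Of the 65, 40 (61.5%) lay above 0 with anthracene and 38 (58.5%) with phenanthrene, where 47.6% and 48.9% of all genes did. The median log2 fold change was 0.135 with anthracene and 0.0828 with phenanthrene, and 0 of the 65 were called by limma in either. An unadjusted p under 0.05 with a higher level was found for 9 of the 65 in anthracene (4.85% of all genes) and for 8 in phenanthrene (1.96% of all genes). At that level 1 of the 65 was lower with anthracene (4.53% of all genes) and 3 with phenanthrene (2.64% of all genes). The gene hmox1a was among them in both. The higher genes were largely those already counted in the AHR-related lists above. With anthracene that held for all of the 9 but LOC103910027. With phenanthrene it held for all of the 8 but foxf2a, olmf4l1 and plvapa. These counts are therefore not independent of the counts over the AHR-related lists. By qRT-PCR the study found that induction of LOC103910027, LOC100332446 and ID108182865 by TCDD needed Ahr2, but those lists left them out. LOC103910027, with few reads, was at 6.24 to 10.3 in anthracene and 1.3 to 3.72 in DMSO_B. Its log2 fold changes were 1.61 with anthracene and -0.589 with phenanthrene. Those of LOC100332446 were -0.315 and -0.319, and those of ID108182865 were 0.346 and -0.252. The 11 genes lower with TCDD had medians of -0.209 and 0.0137, with 4 and 6 of them above 0, and 0 reached an unadjusted p under 0.05 in either isomer. With no limit on the fold change 162 genes were higher with TCDD. Their median was 0.0282 with anthracene and 0.0811 with phenanthrene, and 53.1% and 63.6% of them lay above 0.

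All 6 genes with a TCDD log2 fold change over 4, namely cyp1a, ahrra, cyp1c2, cyp1c1, the growth factor gene fgf7 and wfikkn1, lay above 0 with each isomer, 5 of them at an unadjusted p under 0.05 with anthracene and 2 with phenanthrene. This cut was chosen after the values were seen, and all 6 genes were already in the AHR-related lists above. Among the 4 anthracene libraries, replicate 3 was the highest for 25 of the 65 genes (38.5%), beside 19.7% of all genes, and among the 4 phenanthrene libraries replicate 3 was the highest for 22 (33.8%), beside 27.2%. Without anthracene replicate 2 the median of the 65 was 0.161, and without replicate 3 it was 0.129.

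**Figure D4:**
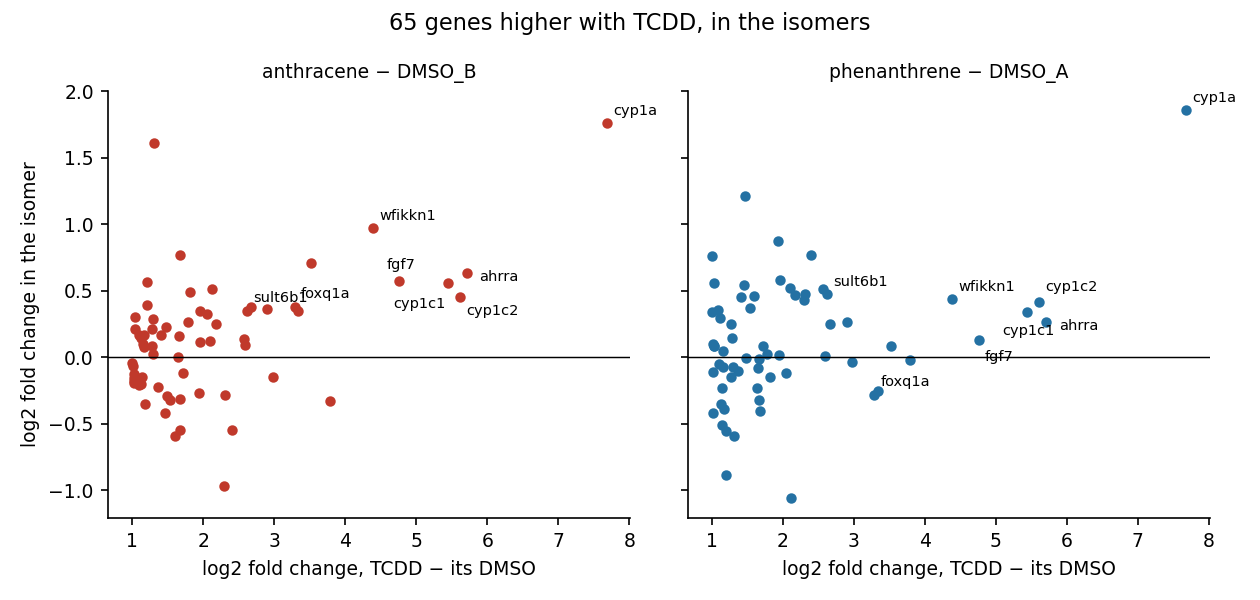
Log2 fold change with anthracene (left, red) and phenanthrene (right, blue), each against its own control, plotted against the log2 fold change with TCDD for the 65 genes higher with TCDD. All 6 genes over 4 on the TCDD axis lie above 0 in both panels, with cyp1a at 1.76 and 1.86, and the genes near 1 on that axis lie on both sides of 0.

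The gene with the smallest p in phenanthrene was sik1, which encodes salt-inducible kinase 1, a kinase that holds back CREB coactivators. It was at 319.6, 357.1, 319.3 and 264.4 in phenanthrene and at 563.7, 586.0 and 511.8 in DMSO_A. All 4 phenanthrene libraries lay below all DMSO_A and all DMSO_B libraries, the latter at 692.0, 629.4, 716.9 and 768.9. sik1 fell by 0.82 on the log2 scale (SE 0.11), with an adjusted p of 2.74e-05 by limma. The exact permutation p was 0.0571 against DMSO_A and 0.00606 against the 7 controls together, each the smallest that its number of libraries allows. In the lanes that held both, phenanthrene replicate 4 was at 264.4 beside DMSO_A replicate 2 at 563.7, and replicate 1 was at 319.6 beside DMSO_A replicate 3 at 586.0.

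Anthracene held sik1 at 737.8, 725.8, 800.5 and 709.2, the highest mean of the 18 groups, while phenanthrene had the 17th. The anthracene libraries overlapped DMSO_B, with a log2 fold change of 0.09 (SE 0.11). The isomers differed in their response by -0.90 log2 units, with an adjusted p of 0.00278 by limma, so sik1 was 1 of the 2 genes called for that difference (0.00915% of genes). It was called in phenanthrene, and for the difference, with each library left out in turn. Levels near that of phenanthrene were also found in other groups of the set, since DBaiP, Fluoran and BbF, as the labels name them, had means of 327.9, 343.6 and 312.3. A low level of sik1 was thus not particular to phenanthrene. 9-Methylanthracene at 368.5 to 424.2 and carbazole at 392.2 to 542.0 also lay below all libraries of their control DMSO_B. Acenaphthene at 332.0 to 515.7 and retene at 502.5 to 609.1 overlapped DMSO_A.

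In the other called genes DMSO_A had the highest or the lowest mean of the 18 groups. nr1d2a, a Rev-erb repressor of the circadian clock, was at 845.5, 736.2, 659.7 and 946.1 in phenanthrene and at 2041.9, 1681.5 and 1103.5 in DMSO_A. It fell by 0.98 on the log2 scale (SE 0.17, adjusted p = 0.00378 by limma). DMSO_A had the highest mean, DMSO_B lay at 626.3 to 747.4, and against all 7 controls the exact permutation p was 0.515. The call was lost without DMSO_A replicate 2 or 3 or phenanthrene replicate 3.

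si:dkey-88n24.11, a protein-coding gene known by its clone name, was at 19.6, 15.7, 21.2 and 19.6 in phenanthrene and at 1.42, 1.59 and 0.0 in DMSO_A. It rose by 3.43 on the log2 scale (SE 0.51, adjusted p = 8.43e-05 by limma) and the groups did not overlap. DMSO_A had the lowest mean, and DMSO_B held 4.34, 3.89, 17.2 and 12.1, of which 1 library reached the phenanthrene range. Against all 7 controls the exact permutation p was 0.0121, where the smallest possible is 0.00606. Anthracene held 1.29, 2.27, 7.88 and 3.4, and the isomers differed in response by 4.53 log2 units (adjusted p = 0.000375 by limma). With 5 in place of 1 added before the logarithm, si:dkey-88n24.11 was still called in phenanthrene (log2 fold change 2.01, adjusted p = 0.00358 by limma) and for the difference (2.67, adjusted p = 0.00586), but with voom weights it was called in neither. Genes with the same clone prefix neighbour it in RefSeq, and reads shared with a near copy were not tested, so this value is uncertain.

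The control groups themselves differed in 13 genes (0.0595%), 12 of them higher in DMSO_A, although both were vehicle at 48 hpf. Of the 36 genes of the circadian clock list, 4 were called, and the glucocorticoid targets fkbp5 and klf9 were called as well. The clock repressor per1b was at 1552.9, 1993.3 and 1712.4 in DMSO_A against 657.3 to 960.3 in DMSO_B (log2 difference 1.05, adjusted p = 1.39e-07 by limma). It was at 1333.4, 1302.0, 1691.1 and 1515.6 in phenanthrene and at 833.8, 639.1, 816.9 and 844.6 in anthracene. The isomers therefore lay near their own control groups and apart from each other for this gene. The same held for the clock gene cry1a, at 199.3 to 272.2 in phenanthrene and 192.2 to 202.4 in DMSO_A against 76.0 to 104.9 in anthracene and 67.0 to 99.2 in DMSO_B.

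fkbp5, which encodes a chaperone of the glucocorticoid receptor, was at 619.9, 546.2 and 152.2 in DMSO_A against 49.6 to 88.2 in DMSO_B, a difference of 2.53 log2 units (adjusted p = 0.00179 by limma). It was at most 234.2 in phenanthrene, a log2 fold change of -1.45 against DMSO_A (adjusted p = 0.777 by limma). A light-induced clock gene, per2, was at 99.8, 118.2, 114.6 and 136.6 in phenanthrene, above DMSO_A (up to 89.0) and DMSO_B (64.5 to 72.5), with a log2 fold change of 0.58 (SE 0.16, adjusted p = 0.521 by limma). Against all 7 controls it was called, at 0.70 with an adjusted p of 0.00731. Whether collection hour or batch differed between the control groups is not given in the sources used here, and compound and control group cannot be told apart for these genes.

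**Figure D5:**
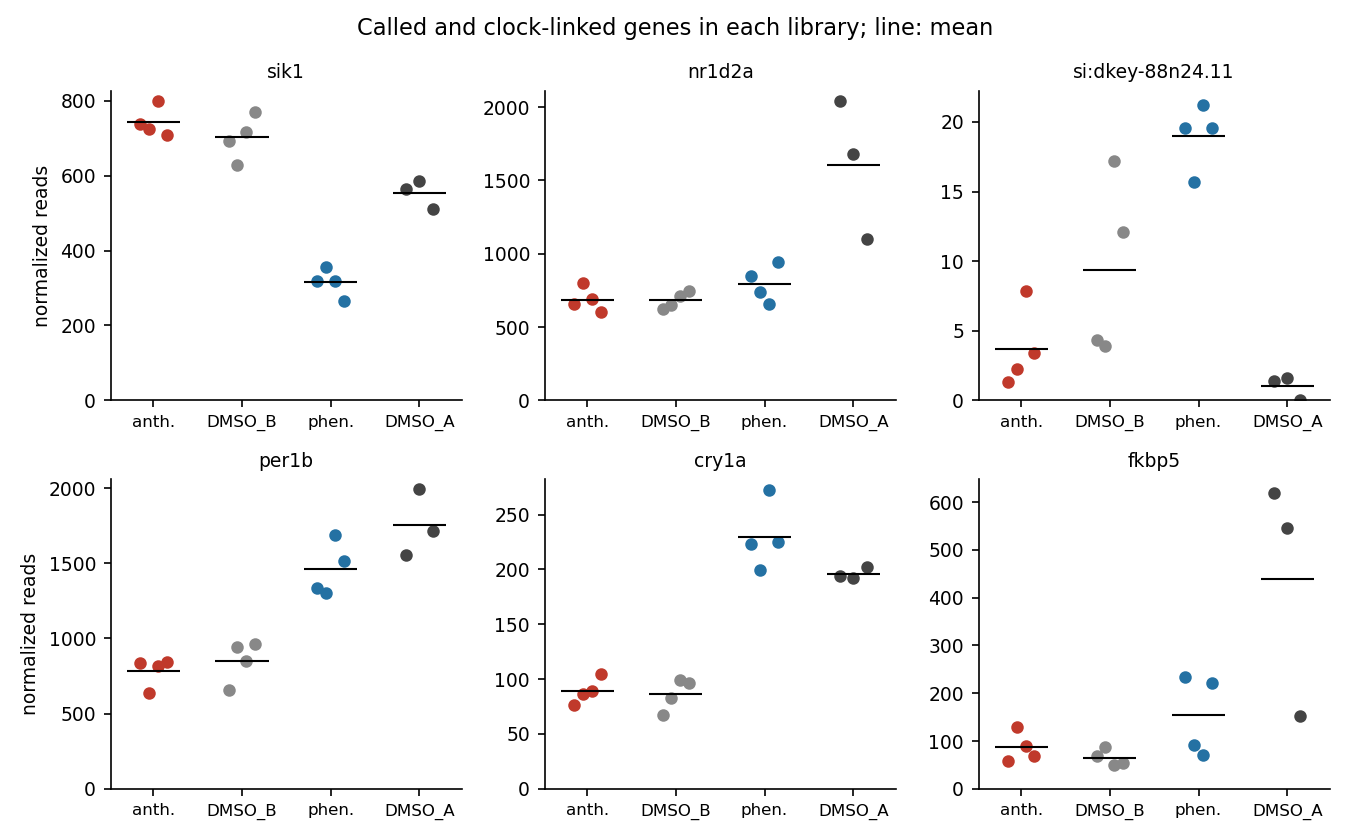
Normalized reads (vertical axis) of 6 genes in each library of anthracene, DMSO_B, phenanthrene and DMSO_A, with the group mean as a line. In the sik1 panel phenanthrene, at 264.4 to 357.1, lies below both control groups, while in the nr1d2a and fkbp5 panels DMSO_A stands above the other 3 groups in mean.

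Comparing the exposed libraries with each other, without controls, phenanthrene minus anthracene gave 62 called genes (0.284%), 34 higher and 28 lower. Without anthracene replicate 2 there were 14, and without replicate 1 there were 205. They included genes whose controls differed in the same direction, such as lonrf1, a ring-finger gene, at 255.9 to 301.0 in phenanthrene and 123.5 to 141.7 in anthracene, with DMSO_A at 164.4 to 239.2 and DMSO_B at 81.2 to 131.7. With each control subtracted, lonrf1 differed by 0.27 log2 units (adjusted p = 1.0 by limma). foxq1a differed by -1.24 between the isomers' libraries (adjusted p = 1.27e-05 by limma), while its controls differed by -0.58 (adjusted p = 0.538).

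The 10 named genes that were higher with anthracene included camsap1a, which encodes a microtubule minus-end protein, at 511.9, 660.7, 575.9 and 531.2 against 474.4, 432.1, 430.7 and 416.3. It had a log2 fold change of 0.37 (SE 0.09, adjusted p = 0.246 by limma). All 4 anthracene libraries lay above all 7 controls, as they did for 0.631% of all genes. Since camsap1a was named for its p in the same comparison, this is a description. The Wnt effector gene tcf7l2 was at 1464.7, 2073.8, 1694.3 and 1479.0 against 1231.5 to 1396.3 (0.32, SE 0.09), a value that was 0.21 without replicate 2. igfbp1b, which encodes a binding protein of insulin-like growth factors, was at 22.5, 32.3, 35.5 and 28.9 against 6.82 to 18.8 (1.28, SE 0.35). Replicate 2 was the highest library for 8 of these 10 genes, and their median log2 fold change was 0.529 with it and 0.347 without it.

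The 10 named genes that were lower with anthracene included ms4a17a.8, a membrane-spanning protein gene, at 211.8, 133.7, 242.3 and 197.8 against 399.3, 430.8, 356.9 and 314.3. Its log2 fold change was -0.95 (SE 0.21), with an adjusted p of 0.188 by limma, and -0.78 without replicate 2. The telomere protein gene ten1 was at 29.6, 24.9, 21.0 and 29.5 against 46.7 to 57.0 (-0.96, SE 0.22). It lay below both control groups, as 0.613% of all genes did, again a description of a gene named for its p. The connexin gene gjd1a was at 17.6 to 23.8 against 34.2 to 45.4 (-0.88, SE 0.24). rpl10, a ribosomal protein gene, was at 576.2, 307.7, 608.8 and 689.9 against 850.1 to 1181.5 (-0.88, SE 0.21). Replicate 2 was the lowest library for 8 of the 10. The median of the 10 was -0.809 with it and -0.615 without it.

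With phenanthrene the named genes that were higher included slc2a10, a glucose transporter gene, at 142.0, 149.0, 142.4 and 126.5 against 96.1, 99.7 and 96.3 in DMSO_A. It had a log2 fold change of 0.52 (SE 0.13, adjusted p = 0.399 by limma), but DMSO_B lay at 101.8 to 138.9. mcm3, which encodes a subunit of the replicative helicase, was at 1495.0 to 1650.2 against 1109.1 to 1385.0 (0.36, SE 0.11). Of the 10 named genes that were higher, 9 lay above all DMSO_A libraries, where 4.23% of all genes did, and lonrf1, per2, mcm3 and ntmt2 lay above both control groups, where 0.741% of all genes did. A lower level was found for elovl6l, a fatty acid elongase gene, at 293.3, 232.0, 287.5 and 326.0 against 451.9, 448.9 and 383.5 (-0.59, SE 0.14), where DMSO_B held 279.6 to 362.6. dio3b, which encodes a deiodinase that inactivates thyroid hormone, was at 404.0 to 585.7 against 688.2 to 976.7 (-0.69, SE 0.18), and DMSO_B held 514.6 to 594.6. Of the 10 that were lower, sik1, tnni4b.3 and ankrd9 lay below both control groups, where 0.709% of all genes did. These genes were named for their p in the same comparison, so the overlap is a description.

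Over the 16913 genes with a mean of at least 20 normalized reads, the log2 fold changes of the isomers had a Pearson correlation of 0.201 across genes, and 0.111 without anthracene replicate 2. Genes are not independent replicates. The 2 comparisons share no exposed or control library, but their p came from 1 fit with 1 pooled spread per gene. A gene with a small pooled spread can therefore pass more easily in both. An unadjusted p under 0.05 in both was found for 86 genes, which were 4.2% of those of anthracene and 8.54% of those of phenanthrene, where 4.61% of all genes passed in phenanthrene and 9.38% in anthracene. Of the 86, 70 had the same sign. Named after their values were seen, abcb5, a transporter gene of the ABC family, had log2 fold changes of 0.29 and 0.43, the heme oxygenase gene hmox1a had -0.35 and -0.39, and the G-protein regulator gene rgs2 had -0.62 and -0.93.

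Lists for the heart and for membrane and sterol biology showed no called gene in either isomer by limma. The 35 genes of heart muscle and cardiac ion handling had medians of 0.01 and 0.01 log2 units, with 1 gene higher and 3 lower at an unadjusted p under 0.05 in anthracene and 1 higher and 1 lower in phenanthrene. Their summed level was 73842.6 to 79818.3 normalized reads in anthracene, below all DMSO_B libraries at 80242.7 to 91758.8. In phenanthrene it was 86554.9 to 94766.9, where DMSO_A held 78982.2 to 87854.8, and these overlapped. Of all single genes 1.85% lay below all DMSO_B libraries with anthracene, and no such share was computed for sums. With anthracene 18 of the 35 heart genes lay above 0, so the sum does not describe the list gene by gene. Of 29 voltage-gated channel genes 0 and 2 were lower at an unadjusted p under 0.05, with medians of -0.10 and -0.19. Of 23 genes of cholesterol synthesis and uptake 4 and 2 were lower and 0 were higher, with medians of -0.19 and -0.21. With anthracene the channel median was -0.05 and the cholesterol median -0.13 without replicate 2. Beside these, 4.53% of all genes were lower at that level with anthracene and 2.64% with phenanthrene. Of the 29 channel genes 8 lay above 0 with anthracene and 2 with phenanthrene. Of the 23 cholesterol genes 6 and 2 did, where 47.6% and 48.9% of all genes did. The summed level of the channel genes in phenanthrene was 16347.1 to 16624.2. It lay below all libraries of DMSO_A (17927.8 to 18302.9) and DMSO_B (17439.7 to 18253.0). In anthracene it was 16516.5 to 19070.0 and overlapped DMSO_B. Neither list was tested as a set.

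Tissue content was compared through 9 marker lists. No list held a called gene. Their median log2 fold changes lay between -0.19 and 0.11 with anthracene and between -0.14 and 0.17 with phenanthrene. The summed level of 19 skeletal muscle genes was highest in anthracene replicate 2, at 1262524.2 normalized reads, where the DMSO_B libraries held 970683.5 to 1071116.2. The summed level of 25 heat shock chaperone genes was 125409.4 in that library and 74736.0 to 90850.9 in DMSO_B, and that of 23 Nrf2 and glutathione genes was 20932.3 and 12668.7 to 14171.7. The summed level of the epidermis markers was 171450.1 to 180908.4 in anthracene, above all DMSO_B libraries at 132236.3 to 160804.6, while phenanthrene at 146605.0 to 189380.7 overlapped DMSO_A at 153401.6 to 182916.0. Of all single genes 1.77% lay above all DMSO_B libraries with anthracene. The median log2 fold change of the 12 epidermis genes with anthracene was 0.055, and it was -0.016 without replicate 2. The part of these differences in the results of anthracene was not tested. In whole embryos fewer cells of a type and less RNA per cell cannot be told apart.

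Both compounds set beside anthracene differed from it in more genes than anthracene did from its control. 9-Methylanthracene minus anthracene gave 912 called genes (4.17%), 378 higher and 534 lower, and carbazole minus anthracene gave 480 (2.2%), 240 in each direction. Without anthracene replicate 2 these counts were 451 and 191, an alternative added after the data were seen. All 3 groups share DMSO_B. The phototransduction gene gnb3a, a G-protein beta subunit of cones, was at 83.3 to 114.9 in anthracene and 72.5 to 108.8 in DMSO_B, but at 12.4 to 24.6 in 9-methylanthracene and 19.1 to 38.4 in carbazole. The differences from anthracene were -2.38 (SE 0.26, adjusted p = 4.99e-09 by limma) and -1.83 (SE 0.26, adjusted p = 8.92e-06). The matrix protein gene postna was at 403.0 to 554.7 in anthracene and 369.8 to 484.2 in DMSO_B, and at 189.5 to 265.2 in 9-methylanthracene and 235.1 to 305.9 in carbazole. Anthracene thus lay with its control for both genes, which were chosen after their values were seen.

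Acenaphthene minus phenanthrene gave 2 called genes (0.00915%), both lower. An unadjusted p under 0.05 for acenaphthene minus phenanthrene was reached by 3432 genes (15.7%). The lipid synthesis gene dgat2, named after its values were seen, was at 643.2 to 765.6 in phenanthrene, 485.6 to 640.5 in DMSO_A and 167.4 to 606.8 in acenaphthene, with a difference of -0.92 (SE 0.19) that was just outside the threshold (adjusted p = 0.0501 by limma). The acenaphthene replicates were the most spread of the 18 groups, with a median SD of 0.285.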

How the data were processed

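RNA of whole embryos was enriched for polyA, prepared with the PrepX kit and sequenced at 100 bp on an Illumina HiSeq, per the labels. Per the labels and the study's methods, the authors aligned reads with STAR to GRCz11, counted them with HTSeq, dropped genes at 0 in many samples and normalized with DESeq2. Versions are not given in the sources used here. The deposited table holds log2 values after a variance-stabilizing transformation, for 21854 genes and 170 libraries. It was not in the unit first planned for, so it was back-transformed. The lowest value, 2.2406, stands for 0 reads, and 100% of values came out within 0.05 of a whole read number. Gene symbols came from RefSeq by identifier (20411 matched).

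Tests used limma 3.58.1 with a mean-variance trend (R 4.3.3) on log2(normalized reads + 1), 2-sided, over 70 libraries in 18 groups, with Benjamini-Hochberg adjustment over all genes. A fitted change understates the change of genes with few reads. Exact permutation tests used scipy 1.17.1 (Python 3.11.15). The procedure was tested on simulated data. Named genes were the 30 AHR-related genes, called genes and, per comparison, the 10 higher and 10 lower genes of smallest p with a mean of at least 20 normalized reads and a symbol that is no clone name. Not every one is described. The compounds, members and lists were chosen with earlier results of these data known. Alternatives were voom, other offsets and filters, another scaling, other sets of libraries or controls, blocks for lane or replicate number, and each library left out. No 2 libraries of a group agreed within counting noise (ratio 3.8 to 18.9, where 1 is counting noise).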

Additional observations from a re-analysis of the deposited data

Results flagged for a closer look

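In the 4 anthracene libraries, cyp1a in replicate 3 stood off from the nearest other library by 0.864 of the group's range, past Dixon's 95% critical value for 4 libraries, and cyp1c1 in the same library stood off by 0.918. Among the compounds set beside the isomers, cyp1a also passed that value in 9-methylanthracene (0.835) and in retene (0.871), where the lowest library stood off. These ratios were taken on normalized reads and not on the log2 scale of the tests. On that scale a library far above the rest stands off by less, and the ratio was not computed there. The critical value assumes normally distributed values, so its chance rate of about 1 in 20 need not hold here.

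The response of sik1 differed between the isomers by -0.903 log2 units, phenanthrene minus anthracene, and that of si:dkey-88n24.11 by 4.53. Both passed the limma test of the difference over all genes. For si:dkey-88n24.11 the control group DMSO_A was the lowest of 18 groups.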

How the results depend on the processing

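Of 116 values recomputed under other settings with all libraries kept, 101 kept their direction and side of the threshold, or their count within 1.5 times. With DMSO_A and DMSO_B pooled the called genes were 4 for anthracene and 7 for phenanthrene, and genes with p under 0.05 for anthracene were 3334. cyp1a was then 1.84 for anthracene and 1.74 for phenanthrene, both past the threshold. A pooled control cancels from the difference of the isomers, which becomes the phenanthrene minus the anthracene libraries. It gave 51 called genes and -0.10 for cyp1a, beside 62 and -0.10 in the direct comparison of the main fit. With lane as a block the difference of the isomers' responses in cyp1a was -0.13, from 0.10. In fits of only the groups compared, the direct comparison of the isomers gave 11 called genes, DMSO_A against DMSO_B gave 30, genes with p under 0.05 for phenanthrene were 1820, and cyp1a lost its call for 9-methylanthracene (0.91, adjusted p = 0.294 by limma) and acenaphthene (-1.14, adjusted p = 0.149). voom called 1 gene for the difference of the isomers. With no fold limit on the TCDD genes, the median of the lower ones in anthracene was 0.00852, from -0.209. Apart from the cancelled control, the cause was not tested for any of these.

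Leaving out 1 library at a time kept 88 of 122 values. Called genes ranged from 0 to 3 for anthracene, 2 to 5 for phenanthrene, 2 to 4 for the difference of responses, 14 to 205 for the isomers' libraries and 6 to 15 for the controls, and, added after the data were seen, 451 to 1022 for 9-methylanthracene and 191 to 671 for carbazole minus anthracene. Genes with p under 0.05 ranged from 646 to 3282 for anthracene and from 802 to 1153 for phenanthrene. The log2 value of cyp1a ranged from 0.97 to 2.31 for anthracene, 1.53 to 2.30 for phenanthrene, 0.36 to 1.69 for 9-methylanthracene minus anthracene and -1.58 to -0.81 for acenaphthene minus phenanthrene. It changed sign for the difference of the isomers (-0.45 to 0.89, negative also at -0.12, -0.05, -0.08 and -0.23) and for carbazole minus anthracene (-0.15 to 1.18).

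Whether replicate numbers pair the samples is not given in the labels, and so few libraries per group could not exclude it. Same-numbered libraries had deviations that correlated between -0.154 and 0.184. The libraries that correlated best with their own number were 0 of 8 for anthracene and DMSO_B, 4 of 6 for phenanthrene and DMSO_A, and 2 of 8 for the isomers. With a replicate block the called genes were 0, 3, 2, 57 and 18 for the 5 comparisons in the order above, and cyp1a was 1.76 for anthracene and 1.88 for phenanthrene.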
